A study of Mus musculus with 2 samples.

Results

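The genes examined here lie on mouse chromosome 13 around Hnrnpk, the gene deleted in the knockout liver. They are the genes of the deposited table that start on chromosome 13 between 48400000 and 68400000 (mm10), about 10 Mb to either side of Hnrnpk (58391142 to 58403343, minus strand). Hnrnpk itself, Fbp1 and genes with names starting in Zfp or Cts were left out, which left 181 of the 21936 genes in the table. Of these, 111 lie at lower and 70 at higher coordinates than Hnrnpk. The series holds bulk liver RNA sequencing from 2 libraries. Livers of hnRNPK flox/flox mice gave the control library. The knockout library has the genotype hnRNPK flox/flox Alb-Cre. By these labels both libraries carry the floxed Hnrnpk alleles, whereas the series title calls the control wild type. The labels do not state how many mice were used, their age or their sex. There was 1 library per genotype, so no difference below has a replicate check, no test across samples was possible, and each 95% interval covers counting error only.

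A floxed allele carries target sites for Cre recombinase, which removes the DNA between them. In Alb-Cre the promoter of the albumin gene, a hepatocyte gene, drives Cre. The data here do not show in which liver cells Cre acted. The protein made from Hnrnpk, heterogeneous nuclear ribonucleoprotein K, binds C-rich RNA and single-stranded DNA and acts in transcription, splicing and mRNA stability. Genes next to a floxed gene are inherited together with it. By the labels both libraries carry the floxed alleles, so the comparison cannot show an effect of DNA inherited with them. It asks only whether the RNA of these genes differed between the libraries according to their distance from the locus.

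The control library had 12428975 counted reads, the knockout library 12176239. The 6 hepatocyte markers (Alb, Apoa1, Ttr, Serpina1c, Cps1 and Hnf4a) were abundant in both, with 1160529 and 1150137 reads in sum and 0 of 6 differing by 2-fold. Of all 9563 genes that met the expression minimum given below, 3.59% differed by 2-fold. Hnrnpk fell short of a 2-fold difference, with 2559 control and 1411 knockout reads. After scaling, 0.567 of the control level remained (0.531 to 0.605).

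As a set, the flanking genes were at nearly the same level in both libraries. All 181 together had 51576 control and 49047 knockout reads, and the knockout sum was 0.978 of the control sum after scaling (0.966 to 0.990). Genes were evaluated if they had at least 20 reads and an FPKM of at least 1 in the library where they were higher (FPKM is a read count scaled for gene length and library depth). Of the 181 genes, 78 were evaluated, 60 had 0 reads in both libraries, and 43 had reads but stayed below the minimum. A count of 0 allows up to 3 reads in a library of this depth, for counting error alone. The evaluated share was 43.1% of the flanking genes and 43.6% of all genes deposited. The median log2 ratio of knockout over control was -0.05 for the 78 evaluated flanking genes and -0.03 for all 9563 evaluated genes. Between its quartiles the ratio ran from -0.24 to 0.13 in the flanking genes and from -0.24 to 0.19 in all genes. The counting interval excluded a ratio of 1 for 37 of the 78 (47.4%), beside 46.8% of all evaluated genes.

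With a 2-fold difference as the size rule, 4 of 78 flanking genes were higher in the knockout (5.13%, beside 2.48% of all evaluated genes) and 1 was lower (1.28%, beside 1.11%). Both directions together took 3.59% of all evaluated genes. The higher genes were Ntrk2, Cxcl14, Golm1 and Ogn, and the lower gene was Nfil3. All 4 higher genes reached the expression minimum in the knockout library alone, so they could enter the set only by being higher there. Of the 72 flanking genes that reached the minimum in both libraries, 0 were higher (beside 1.20% of all such genes) and 1 was lower (beside 0.525%). At a 1.5-fold difference, 7 of the 78 were higher (8.97%, beside 6.15%) and 5 lower (6.41%, beside 5.29%).

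**Figure D1:**
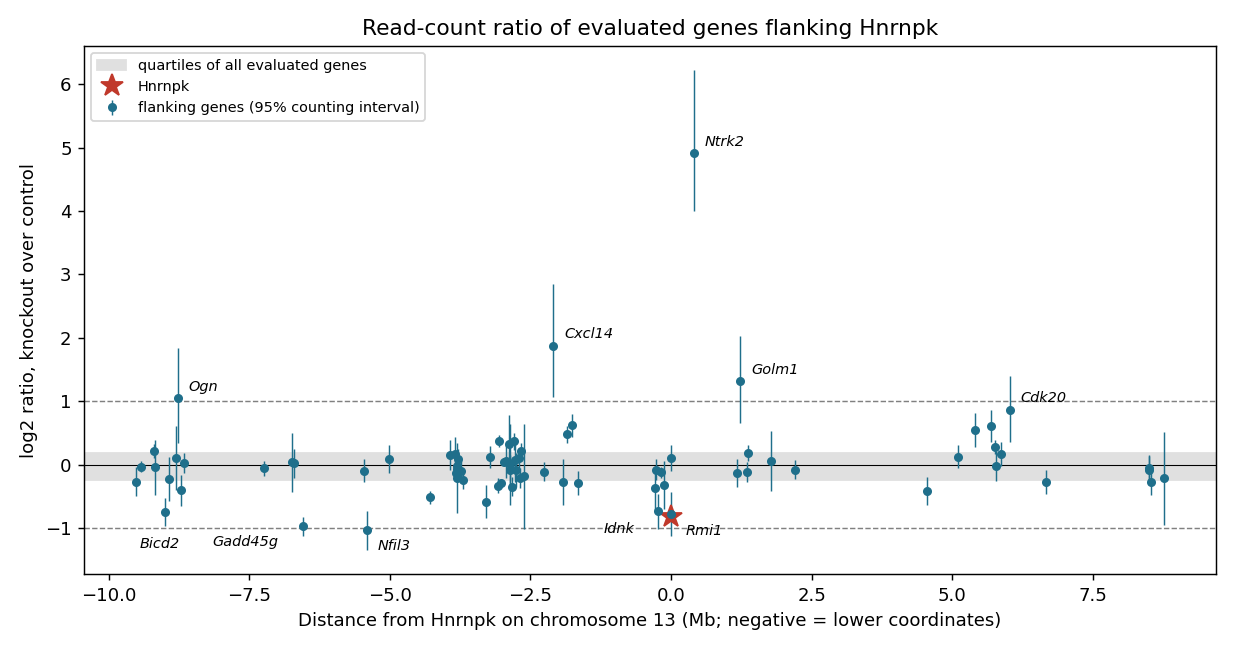
Log2 ratio of knockout over control (vertical axis) against the distance in Mb from Hnrnpk (horizontal axis, negative at lower coordinates) for the 78 evaluated flanking genes. Bars are 95% counting intervals, dashed lines mark 2-fold, and the grey band runs between the quartiles of all evaluated genes. Most points lie near 0 at every distance, and Ntrk2 stands at 4.91.

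The difference between the libraries did not grow or shrink steadily with distance. Across the 78 evaluated genes, the Spearman coefficient between the log2 ratio and the distance was -0.01 and Pearson's r was -0.15. Without Ntrk2 these were 0.02 and -0.04 over 77 genes. The size of the log2 ratio without its sign had a Spearman coefficient of -0.15 with distance. These values describe genes that share the same pair of libraries and are not independent replicates. The median log2 ratio was -0.22 for the 8 evaluated genes within 1 Mb of Hnrnpk and -0.01 for the 12 genes between 1 and 2.5 Mb. It was -0.07 for the 29 genes between 2.5 and 5 Mb and -0.03 for the 29 genes at 5 Mb or more. The lower value nearest to Hnrnpk rests on few genes, 6 of 8 being below 0 with a range from -0.77 to 4.91. Adjacent genes showed little likeness in their ratios: over 77 pairs of adjacent evaluated flanking genes the Spearman coefficient was -0.14, and over 9538 adjacent pairs on all chromosomes it was 0.08.

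The genes closest to Hnrnpk were a mixture of housekeeping and tissue-restricted genes. Rmi1, which encodes a subunit of a complex that resolves DNA recombination intermediates, starts inside the span of Hnrnpk on the opposite strand (ENSMUSG00000035367, 58402248 to 58411148, plus strand). It had 190 control and 108 knockout reads (FPKM 2.33 and 1.35), a knockout level of 0.585 of the control (0.457 to 0.744). That ratio is near the 0.567 of Hnrnpk itself, and the intervals overlap. The spans of both genes overlap over 1096 bases and their annotated exons over 330 bases, and without strand information reads there cannot be told apart. Their 300-base promoter windows (250 bases before to 50 after the start, RefSeq on GRCm38.p6, the assembly called mm10) are printed because they share 230 bases, chr13:58402068-58402297, which are identical once 1 strand is reversed. The Hnrnpk window ends at 58402367, inside the Hnrnpk span that ends at 58403343. The RefSeq start used for this window therefore differs from the start behind the overlap of 1096 bases. Capitals mark CCCTCCC or its reverse complement, a C-rich motif chosen because hnRNP K binds C-rich stretches; the windows are chr13:58402068-58402367 on the minus strand for Hnrnpk and chr13:58401998-58402297 on the plus strand for Rmi1.
Hnrnpk: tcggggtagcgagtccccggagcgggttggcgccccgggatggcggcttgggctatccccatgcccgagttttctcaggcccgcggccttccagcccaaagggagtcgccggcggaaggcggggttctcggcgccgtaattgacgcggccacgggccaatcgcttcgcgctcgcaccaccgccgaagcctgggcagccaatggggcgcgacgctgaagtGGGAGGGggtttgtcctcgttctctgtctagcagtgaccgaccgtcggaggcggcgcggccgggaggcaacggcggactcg
Rmi1: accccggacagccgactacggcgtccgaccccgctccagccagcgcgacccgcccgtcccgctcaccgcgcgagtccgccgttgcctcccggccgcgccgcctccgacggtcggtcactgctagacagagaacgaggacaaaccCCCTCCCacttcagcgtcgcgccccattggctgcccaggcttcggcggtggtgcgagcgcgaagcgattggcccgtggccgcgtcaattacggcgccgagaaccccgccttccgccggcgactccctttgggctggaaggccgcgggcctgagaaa

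The 1 match that each of these windows holds lies in the shared stretch and is the same site read from opposite strands. Of 27025 promoter windows, 21.3% held the motif on either strand. It was present in 23 of the 69 evaluated flanking genes with a window (33.3%), beside 27.0% of 7712 evaluated genes of the table with a window. A match describes the letters in the window and is not a binding site.

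On the lower-coordinate side, 2210016F16Rik, whose end lies 5.92 kb from Hnrnpk, had 360 and 377 reads (log2 ratio 0.11, interval of the fold 0.930 to 1.25). Its neighbour Kif27, a kinesin gene, had 1 and 0 reads. Gkap1, which encodes an anchoring protein of cGMP-dependent kinase, had 138 and 108 reads, with an interval that includes equal levels (0.620 to 1.04). The gene directly adjacent to Hnrnpk on this side therefore had slightly more knockout reads, and the interval of its ratio includes 1. Ubqln1, which encodes a shuttle protein of the proteasome, had 2239 and 2005 reads (0.921 of control, 0.867 to 0.979). Idnk, the gluconokinase gene, had 293 and 171 reads, 1.67 times as high in the control (1.37 to 2.02). Idnk and Rmi1 were the lowest of the evaluated genes within 1 Mb, and both stayed within 2-fold. Hnrnpa0, another hnRNP gene, had 623 and 573 reads (0.946 of control, 0.843 to 1.06). Klhl3, a substrate adaptor of a ubiquitin ligase, had 161 and 122 reads (0.779 of control, 0.611 to 0.992). Spock1, the farthest gene of this group, had 0 reads in both libraries.

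**Figure D2:**
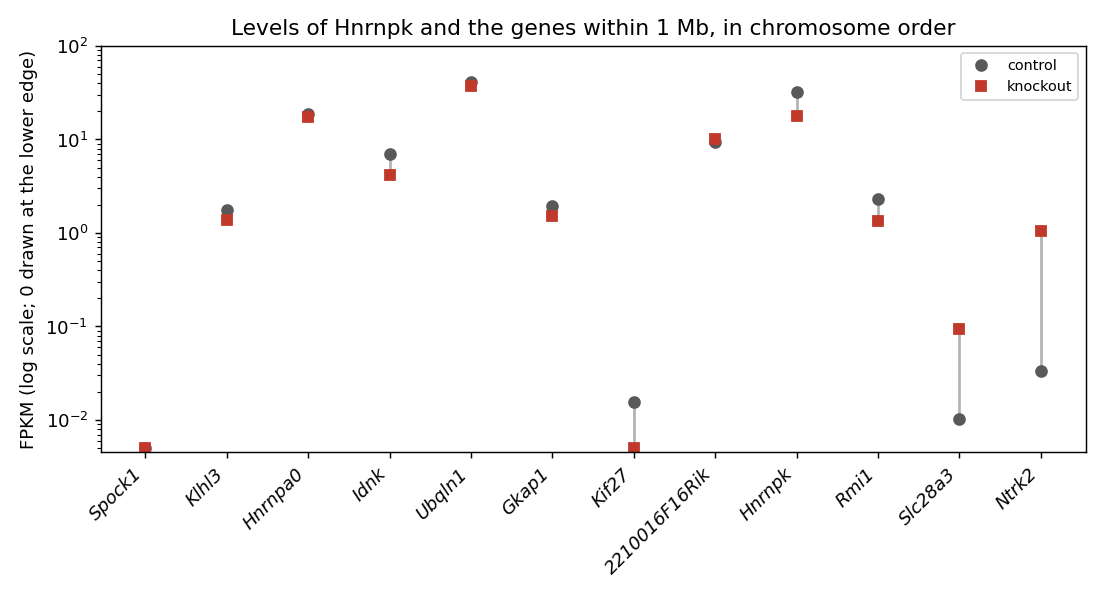
FPKM on a log axis for Hnrnpk and the 11 flanking genes within 1 Mb, in chromosome order, in the control (circles) and the knockout library (squares); an FPKM of 0 is drawn at the lower edge. The symbols nearly coincide for Hnrnpa0, Ubqln1 and 2210016F16Rik and are farthest apart for Ntrk2.

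On the higher-coordinate side, beyond Rmi1, both genes within 1 Mb had more knockout reads. Slc28a3, a nucleoside transporter gene 142 kb away, had 1 and 9 reads (9.26-fold, 1.28 to 406), below the expression minimum. Ntrk2 starts 403 kb from Hnrnpk (ENSMUSG00000055254, 58806569 to 59133970, plus strand). It encodes TrkB, the receptor tyrosine kinase for brain-derived neurotrophic factor, known mainly from neurons. It had 8 control and 248 knockout reads, FPKM 0.0334 and 1.06, and was 31.9-fold higher in the knockout (15.9 to 74.7). Among all 9563 evaluated genes its log2 ratio of 4.91 ranked 3rd from the top. Even in the knockout its level stayed near the lower limit of evaluation. Its annotated exons span 19292 bases. Counts over the whole gene show neither where along it the reads fell nor which isoform they came from. The promoter window of Ntrk2 (chr13:58806319-58806618, plus strand) is shown because its ratio is the highest of the flanking genes; it holds no capitals, since the C-rich motif was not found in it.
Ntrk2: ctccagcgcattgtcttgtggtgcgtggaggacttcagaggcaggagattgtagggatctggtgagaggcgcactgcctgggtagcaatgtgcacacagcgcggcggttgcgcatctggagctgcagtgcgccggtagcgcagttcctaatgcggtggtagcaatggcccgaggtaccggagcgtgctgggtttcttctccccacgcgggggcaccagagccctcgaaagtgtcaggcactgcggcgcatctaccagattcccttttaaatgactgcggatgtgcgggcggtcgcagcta

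Golm1, Cxcl14 and Ogn were the other genes past 2-fold in the upward direction. Golm1, which encodes a Golgi membrane protein raised in human liver disease, lies 1.23 Mb from Hnrnpk (ENSMUSG00000021556, 59634626 to 59675811, minus strand). It had 27 and 66 reads (2.51-fold, 1.58 to 4.09). Its exons overlap those of Naa35 (359 and 318 reads), a gene on the opposite strand, over 1297 bases. Reads of this stretch could belong to either gene. Cxcl14, a chemokine gene, lies 2.09 Mb away on the other side (ENSMUSG00000021508, 56288643 to 56296551, minus strand). It had 15 and 55 reads (3.77-fold, 2.10 to 7.19). Ogn is the gene of the matrix proteoglycan osteoglycin (ENSMUSG00000021390, 49608046 to 49624501, plus strand). It had 24 and 49 reads (2.10-fold, 1.26 to 3.58). These genes lie far from each other, and Ogn is 8.77 Mb from Hnrnpk. Cdk20, a protein kinase gene at 6.03 Mb, was just within the rule with 51 and 91 reads (1.84-fold, 1.29 to 2.64).

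Beside these genes, several markers of bile duct and connective tissue cells were also higher in the knockout library. Of 7 ductular markers 6 were evaluated and 5 were past 2-fold higher, beside 2.48% of all evaluated genes. They had 340 and 1623 reads in sum (summed FPKM 12.6 and 68.7), of which the largest single marker held 204 and 1078. Of 8 fibroblast and stellate cell markers, all evaluated, 4 were past 2-fold higher, with 2342 and 3541 reads in sum (summed FPKM 35.4 and 56.2). The largest single marker held 1777 and 2270 of these reads, so both sums mostly describe 1 marker. No marker of either list was at 0 reads in either library. Macrophage markers had 3393 and 2884 reads in sum, with 0 of 7 past 2-fold, and endothelial markers 3883 and 3098, with 0 of 5. Among all evaluated genes 3.59% were past 2-fold in either direction. The 4 lymphocyte markers had 9 and 10 reads in sum, with Cd79a at 0 in the knockout. The part of these cell types in the ratios of Ntrk2, Golm1, Cxcl14 and Ogn was not tested, and in bulk tissue a change in the number of cells of a type and a change in RNA per cell cannot be told apart.

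The small leucine-rich matrix genes Ecm2, Aspn, Omd and Ogn sit side by side at 8.77 to 8.86 Mb from Hnrnpk, inside the span of Cenpp. All 4 had more reads in the knockout, 110 and 158 in sum. Ecm2 had 16 and 31 reads and Aspn 4 and 9, both below the expression minimum. Omd, which encodes osteomodulin, had 66 and 69 reads (1.08-fold, 0.756 to 1.53). Omd was at equal levels within counting error, and Ogn was just past 2-fold (log2 ratio 1.05). After a correction for gene length Ogn was within the rule, at 0.96.

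Among signalling and transcription genes, 8 of 20 were evaluated. Of these, 1 was higher (Ntrk2) and 1 was lower, beside 2.48% and 1.11% of all evaluated genes. The median log2 ratio was -0.01. That median was -0.63 over the 4 of these genes that reached FPKM 5 and 100 reads. The lower gene was Nfil3, a transcriptional repressor of the basic leucine zipper family that acts beside the circadian clock. It lies 5.41 Mb from Hnrnpk (ENSMUSG00000056749, 52967209 to 52981073, minus strand). It had 269 and 128 reads (FPKM 10.7 and 5.19), 2.04 times as high in the control (1.65 to 2.54). Gadd45g, a gene induced by growth arrest and DNA damage, had 1058 and 526 reads (FPKM 72.6 and 36.8). It was 1.96 times as high in the control (1.76 to 2.18), a log2 ratio of -0.97 just within the rule. Nfil3 and Gadd45g were the lowest of the 78 genes, and a correction for gene length, described below, put Gadd45g past the rule at -1.13. The kinase gene Grk6 was the least different of this group, with 236 and 238 reads. Their promoter windows are printed for comparison with that of Hnrnpk (Gadd45g at chr13:51846425-51846724, plus strand, and Nfil3 at chr13:52980990-52981289, minus strand). The C-rich motif, in capitals, was found in that of Gadd45g and not in that of Nfil3.
Gadd45g: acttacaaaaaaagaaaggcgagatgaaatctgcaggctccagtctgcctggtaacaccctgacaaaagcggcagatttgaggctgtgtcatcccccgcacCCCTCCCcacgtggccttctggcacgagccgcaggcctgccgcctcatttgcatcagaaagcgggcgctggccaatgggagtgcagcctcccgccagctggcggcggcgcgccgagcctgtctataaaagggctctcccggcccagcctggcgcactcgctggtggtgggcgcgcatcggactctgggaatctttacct
Nfil3: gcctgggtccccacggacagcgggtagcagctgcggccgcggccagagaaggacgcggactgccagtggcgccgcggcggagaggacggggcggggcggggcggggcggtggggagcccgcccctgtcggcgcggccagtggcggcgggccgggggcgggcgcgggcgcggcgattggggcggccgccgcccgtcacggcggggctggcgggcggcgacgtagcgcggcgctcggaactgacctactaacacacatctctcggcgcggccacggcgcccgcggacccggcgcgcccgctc

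The Nfil3 window held 54 CG dinucleotides in 300 bases, that of Gadd45g 21 and that of Ntrk2 23, beside a median of 25 in the 69 evaluated flanking genes with a window and 21 in evaluated genes of the whole table. None of the 5 genes past 2-fold held the motif in its window, and all 23 windows with it belonged to genes within 2-fold. Genes within 2-fold made up 64 of the 69 windows. With the motif in 33.3% of evaluated flanking genes and 27.0% of all evaluated genes, 5 windows are too few to relate it to the ratios.

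The abundant flanking genes, most of them liver or housekeeping genes, differed little. The 10 with the highest mean FPKM held 40.6% of the control reads of the set. F12, the gene of coagulation factor XII made by hepatocytes, was the highest, with FPKM 263 and 270 (6402 and 6450 reads, log2 ratio 0.05). Lect2, which encodes a secreted hepatocyte protein, had FPKM 70.3 and 97.6 (803 and 1092 reads, 1.40-fold, 1.28 to 1.53). Lect2 was thus higher in the knockout beyond counting error, within 2-fold. Ninj1, a gene of plasma membrane rupture, had FPKM 70.4 and 81.2, and Higd2a, which acts in assembly of the respiratory chain, 66.8 and 63.1. Prelid1, a mitochondrial lipid transfer gene, had FPKM 51.8 and 66.5 (log2 ratio 0.37). Its span overlaps those of its neighbours Rab24 and Mxd3, which had 15 and 14 reads and 1 and 6 reads. Uqcrb, a subunit gene of respiratory complex III, had FPKM 44.9 and 43.0, and Ubqln1 40.9 and 37.4. Fam120a, an RNA-binding protein gene, had 39.4 and 38.4, and Lman2, a cargo receptor of the secretory pathway, 38.5 and 31.2 (0.818 of control, 0.779 to 0.858). Gadd45g, the remaining member of this group, was the only 1 of the 10 whose levels differed by nearly 2-fold.

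**Figure D3:**
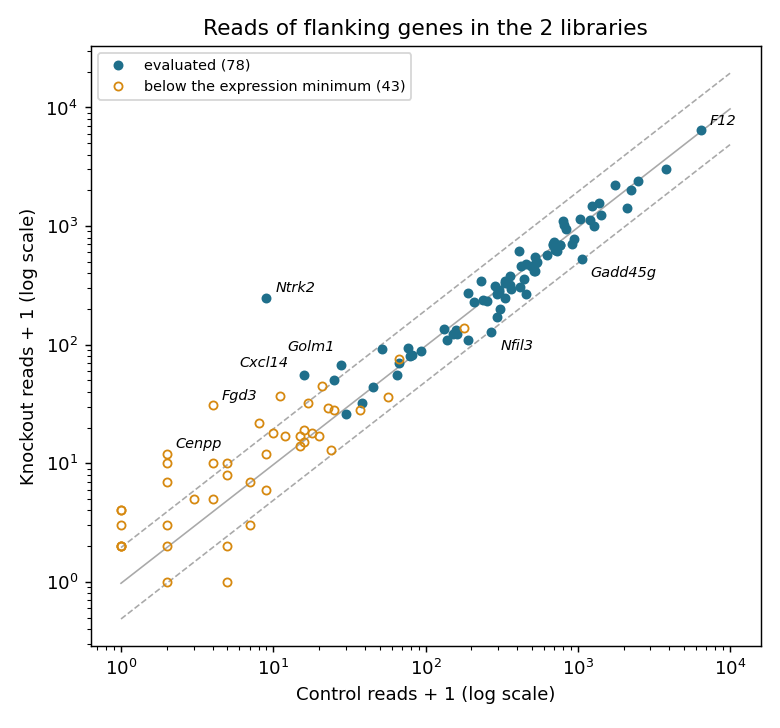
Reads plus 1 of the flanking genes in the control (horizontal axis) and knockout library (vertical axis), both on log axes, with filled points for the 78 evaluated genes and open points for the 43 genes below the expression minimum; the 60 genes at 0 in both are not drawn. The solid line is equal scaled levels and the dashed lines are 2-fold; genes with many reads lie close to the solid line, and Ntrk2 lies far above it.

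Liver secreted and metabolic genes were evaluated for 16 of 21 members, with a median log2 ratio of -0.02. Of these, 2 were past 2-fold higher and 0 lower, beside 2.48% and 1.11% of all evaluated genes. The 2 higher genes, Cxcl14 and Golm1, reached the expression minimum in the knockout library alone. Outside these, Tgfbi, a matrix protein gene induced by TGF-beta, had 413 and 619 reads (1.54-fold, 1.36 to 1.75). Sfxn1, the mitochondrial serine carrier, had 2096 and 1429 reads (0.701 of control, 0.655 to 0.750). Aopep, an aminopeptidase gene, had 416 and 304 reads (0.752 of control, 0.646 to 0.874), and its exons overlap those of Fancc. Members of this group therefore lay on both sides of 0 beyond counting error.

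All 12 genes of chromatin and RNA functions were evaluated and 0 passed 2-fold, beside 3.59% of all evaluated genes. Their log2 ratios ran from -0.40 to 0.18, with a median of -0.07. The lowest were Nol8, a nucleolar protein gene (332 and 244 reads, -0.40), the histone methyltransferase gene Nsd1 (1284 and 993 reads, -0.33) and the histone demethylase gene Phf2 (362 and 293 reads, -0.26). Nop16 was the least different, at -0.02. For DNA repair and cell cycle genes, 5 of 7 were evaluated and 0 passed 2-fold, beside 3.59% of all evaluated genes (median -0.02). The 2 of them within a window of 5 Mb to each side had a median of -0.68. After Rmi1, the largest differences were those of Uimc1, whose product recruits the BRCA1 complex to damaged DNA (306 and 199 reads, -0.58), and Ercc6l2, a repair helicase gene (190 and 270 reads, 0.55). Cdc14b was at -0.02. These repair genes thus differed in both directions.

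Of 9 protein turnover and trafficking genes, 8 were evaluated and 0 passed 2-fold, beside 3.59% of all evaluated genes. Their median was -0.11. Tmed9, a cargo protein gene of the early secretory pathway, was at 0.37 (811 and 1018 reads), Lman2 at -0.29, the ubiquitin ligase gene Rnf44 at -0.24 and B4galt7 at 0.08. Of 8 genes listed under cytoskeleton, 4 were evaluated and 0 passed 2-fold, beside 3.59% of all evaluated genes (median -0.05). The 4 include Ninj1 (0.22), named above as a gene of plasma membrane rupture. Bicd2, a dynein adaptor gene 9004 kb from Hnrnpk, was the lowest with 453 and 264 reads (0.599 of control, 0.513 to 0.699), and Pdlim7 was at 0.33. The ratio of Bicd2 was thus as low as that of Idnk near the locus. The remaining 100 flanking genes had none of these roles, and 52 of them had 0 reads. Another 23 were evaluated, with log2 ratios from -0.36 to 0.87. Of these 23, 0 passed 2-fold, beside 3.59% of all evaluated genes, and a count of 0 among so few genes says little. Slc35d2, a nucleotide sugar transporter gene with 230 and 341 reads (1.52-fold, 1.29 to 1.81), was among the highest of them.

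Low-expressed flanking genes with reads leaned toward the knockout, as did such genes in the whole table. Of 28 that had 10 or more reads in total but were below the minimum, 8 were past 2-fold higher (28.6%, beside 17.7% of 3130 such genes in the table) and 0 lower (beside 7.09%). Sema4d, a semaphorin gene, had 10 and 36 reads (3.70-fold, 1.80 to 8.37). Dbn1, which encodes the actin-binding protein drebrin, had 20 and 44 reads (2.26-fold, 1.31 to 4.05). Cenpp had 1 and 11 reads (11.3-fold, 1.64 to 487). All of these rest on few control reads. Another 15 flanking genes had fewer than 10 reads in total.

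The silent genes were grouped along the chromosome. The longest stretch without an evaluated flanking gene was 2.20 Mb between Dapk1 and Aopep, which holds 17 flanking genes, 10 of them at 0 reads in both libraries. It also holds 13 of the genes left out by name, 1 of them evaluated (Fbp1, FPKM 563 and 476), so the stretch is not silent throughout. A second stretch of 1.79 Mb between Mfsd14b and Uqcrb held 8 flanking genes, all at 0. It also held 1 gene left out by name, Zfp369, which was evaluated (199 and 139 reads). The next, of 1.37 Mb, between Iars and Spin1 held 7, of which 6 were at 0. Expressed genes were denser at lower coordinates: 57 of 111 were evaluated there, beside 21 of 70 on the other side. Of 37 genes with symbols of predicted genes, 25 had 0 reads in both libraries.

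Compared with other chromosomes, the region did not stand out in its median. The 267 evaluated genes of chromosome 13 outside the set had a median log2 ratio of -0.04. Of these 267, 10 were past 2-fold higher (3.75%) and 0 were lower. The medians of the 19 autosomes, chromosome 13 with the flanking genes among them, ran from -0.12 to 0.02. Of these medians, 5 were below the -0.05 of the flanking genes. The share of genes past 2-fold higher ran from 1.26% to 4.26% across autosomes, beside 5.13% of the flanking genes. It was 4.06% for chromosome 13 as a whole. The share past 2-fold lower ran from 0.290% to 2.94%, beside 1.28%. The 0.290% is that of chromosome 13 itself, where the 1 lower gene of 345 evaluated was the flanking gene Nfil3. The flanking share of higher genes counts only the 4 genes named above, each of which passed the expression minimum in the knockout alone.

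**Figure D4:**
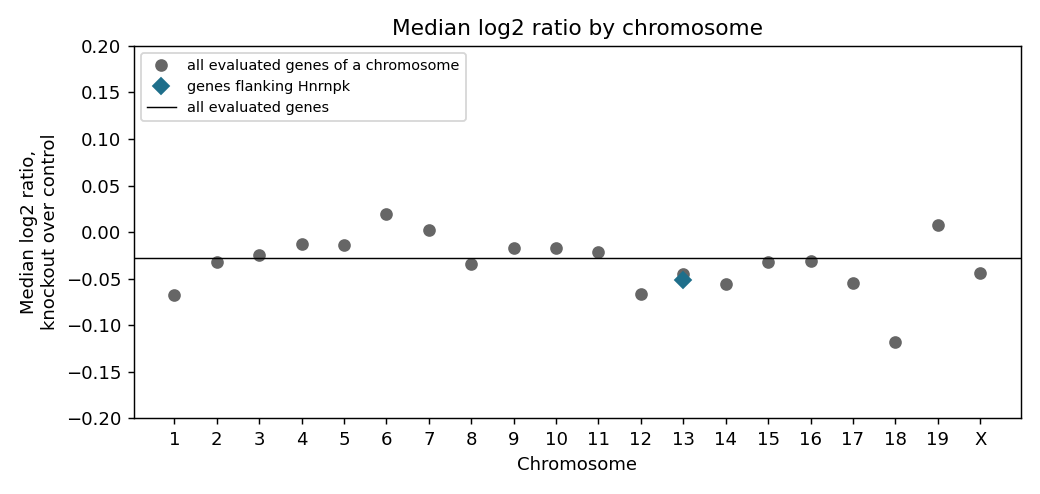
Median log2 ratio of knockout over control (vertical axis) of all evaluated genes on each chromosome (circles) and of the 78 evaluated genes flanking Hnrnpk (diamond), with the median of all 9563 evaluated genes as a line. The diamond at -0.05 lies among the circles, which run from -0.12 to 0.02.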

How the data were processed

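Liver RNA was measured in 1 control and 1 knockout library. The authors deposited 1 table that gives, per gene and library, read counts and FPKM. Bowtie2 2.4.2 and mm10 are named, per the submitters' processing notes. How reads were counted, whether by strand, and how multiply mapping reads were handled: not given in the sources used here. Deposited FPKM values equalled counts divided by gene length and column total for all 21936 genes (relative tolerance 1e-06). Groups followed the sample labels and the WT or KO ending of each column name.

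TMM factors (1.004 for the control, 0.996 for the knockout; edgeR 4.0.16, R 4.3.3) adjusted the library totals. The log2 ratio used counts scaled to the mean library size with 0.5 added, and the 2-fold rule was applied to it. Folds with nothing added were used for this rule first, and the change was made after the counts over all genes were seen; the counts of flanking genes past the rule were 4 and 1 both ways. Folds had nothing added, and their 95% intervals are exact Clopper-Pearson intervals of the split of a gene's reads; without molecular identifiers, reads are not independent molecules, and these cover counting error only. Distance is the gap between a gene's span and that of Hnrnpk, and 0 where they overlap. Values were computed in Python 3.11.15 with scipy 1.17.1, pandas 2.3.3 and numpy 2.4.6, plots were drawn with matplotlib 3.10.9, and the calculation was tested on simulated counts. All 181 identifiers were in GENCODE (GRCm38), 179 with identical coordinates, all protein coding. RefSeq promoter windows were matched by symbol for 145 of 181 genes, taking the first window listed.

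The members, the 7 role lists and the marker lists were chosen with earlier results of these data known. Named genes were all evaluated genes within 1 Mb of Hnrnpk, those past 2-fold, the 10 highest levels, the 8 highest and 8 lowest log2 ratios, and the 3 most and 1 least different genes of each role list. Overlapping partners and genes named at stretch ends, by cluster or below the expression minimum (Kif27, Slc28a3, Spock1, Ecm2, Aspn, Sema4d, Dbn1, Cenpp) are outside this rule and were chosen after their values were seen. Alternatives covered scaling (including DESeq2 1.42.0 size factors), pseudocount, expression filter, fold threshold, unit, gene length (subtracting a running median over 401 genes ordered by length) and membership. Across all 9563 evaluated genes the log2 ratio was lower in longer genes (Spearman coefficient with length -0.27). For the 78 flanking genes this coefficient was -0.19.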

Additional observations from a re-analysis of the deposited data

How the results depend on the processing

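With 1 library per genotype no replicate could be left out. No paired analysis was possible because the groups share fewer than 2 replicate numbers. The count of flanking genes past 2-fold higher, 4 of 78, became 19 of 121 with no expression filter. It was 2 of 75 with a filter on the mean FPKM of both libraries, and 0 of 47 with a minimum of FPKM 5 and 100 reads. At 1.5-fold it was 7 of 78. It was 2 without genes whose span overlaps another gene. The count lower, 1, became 5 with no filter, 5 at 1.5-fold, 2 after the length correction, which took Gadd45g past the rule and Ogn (0.96) within it and so left 3 higher, and 0 in a window of 5 Mb to each side. The filters admit fewer or more genes of low level, which by construction changes which of them can be counted. With no filter, a gene with 0 control reads and 1 knockout read, such as Cdhr2, counts as higher. The share of all genes past the rule was not computed for these other filters, so their counts have no background beside them. The summed ratio, -0.03 in reads, was -0.0031 in FPKM, which divides the reads of each gene by its length. The median log2 ratio of -0.05 ran from -0.08 with the 5 Mb window to 0.04 with no filter, and the median within 2.5 Mb, -0.09, was 0.01 after the length correction; neither has a clear sign. Hnrnpk ran from -0.83 to -0.73. Of 200 values of 40 named genes under 5 alternatives, 192 stayed inside their counting interval and 8 moved, all under the length correction. F12 (-0.06), Fam120a (0.04) and Cdc14b (0.12) changed sign there, the last 2 while staying inside their counting intervals. Under the same correction Nsd1 went from -0.33 to -0.13 and Lman2 from -0.29 to -0.15, while Gadd45g went from -0.97 to -1.13. Medians of role lists rest on few genes and moved with the genes admitted: signalling and transcription, -0.01 over 8 genes, was -0.63 over the 4 left by the stricter minimum and 0.13 over 15 with no filter. DNA repair and cell cycle, -0.02 over 5, was -0.68 over the 2 in the 5 Mb window. Cytoskeleton, -0.05 over 4, was -0.26 over the 2 left by the stricter minimum, Bicd2 and Ninj1. The small leucine-rich matrix genes, 0.58 over 2, were at 1.01 over 4 with no filter. Low read counts limit the ratios of Ntrk2, Cxcl14, Golm1 and Ogn, which have 8 to 27 control reads.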
